A study of Arabidopsis thaliana with 36 samples.

Results

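MYR1 (AT5G18240) and MYR2 (AT3G04030) are a pair of related Arabidopsis thaliana genes that encode MYB-related transcription factors. They were taken from the deposited tables by their gene identifiers, as 2 of 32833 genes listed and 2 of the 18768 genes with enough reads to test. The pair was chosen by its measured values in these libraries, the low level of MYR1 45 min after the roots were moved. The values of 1 mM against 0 min, and those of 10 mM against the same 0 min libraries, are therefore a description with no test for both genes, as are the steps of MYR1 and of the read ratio into and out of 45 min on either medium.

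Both proteins belong to the MYB-CC family, in which a single MYB-type DNA-binding repeat is followed by a coiled coil. The family also holds PHR1, the main transcriptional regulator of the phosphate starvation response, its relative PHL1, and APL, which is needed for phloem identity. MYR1 and MYR2 have been described as redundant repressors of flowering under decreased light, with effects linked to gibberellin, and MYR2 also as a negative regulator of the asparagine synthetase gene ASN1.

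The series profiled poly-A RNA of Col-0 roots, taken as whole organs. Seedlings of all groups were raised for 7 days on a mesh over plates that held 1 mM KNO3, so every group shares low-nitrate growth. Growth was at 22 °C under 16 h of light and 8 h of dark. For the 0 min group each mesh was raised and returned to the same plate, which gave those roots the handling but no change of medium. No group handled in this way was sampled at a later time. In the other 8 groups, the mesh went to fresh plates with either 1 mM KNO3 or 10 mM KNO3, and roots were frozen 15, 45, 90 or 180 min later. Each of the 9 groups had 4 libraries, 1 from each of 4 labelled batches, and each replicate joined 2 plates per time point. The move to fresh 1 mM medium is the control for the move itself, and no group received potassium without nitrate, so the ions of KNO3 cannot be told apart. In values against 0 min, a later response to handling, the fresh medium, elapsed time and time of day cannot be told apart either. The BrAD-seq libraries used here count reads at the 3' ends of transcripts.

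The libraries held between 1376404 and 7512410 counted reads, with a median of 5126926. Batch 1 was the shallowest, with a median total of 2155735, against 4657127, 6246828 and 6446532 in batches 2 to 4. The smallest library, batch 4 of 1 mM at 45 min, stood apart, with a median correlation of 0.912 with the other libraries of its group, where the next lowest library had 0.943. All groups held root transcripts: the 5 endodermis markers summed to between 309 and 653 CPM (counts relative to the library total) in each library and the 4 root hair markers to between 209 and 410. The 10 shoot photosynthesis markers summed to between 11.6 and 38 CPM.

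Both genes lie on the minus strand in RefSeq's TAIR10.1 annotation, MYR1 at chr5:6028285-6030802 and MYR2 at chr3:1042700-1044813. Their longest annotated transcripts have 1688 and 1644 bases and their coding sequences 1209 and 1185 bases. Over 1179 aligned coding bases 84.1% were identical. Of the stretches where a read could be assigned to either gene, the next sequences show that with the longest shared run. It is 87 bases of coding sequence in the last exon of each gene (exon 7 of 7 in MYR1, chr5:6029208-6029294; exon 5 of 5 in MYR2, chr3:1043487-1043573), both from the minus strand and written 5′ to 3′. Capitals mark the longest run the 2 transcripts share, which has 37 bases.
MYR1: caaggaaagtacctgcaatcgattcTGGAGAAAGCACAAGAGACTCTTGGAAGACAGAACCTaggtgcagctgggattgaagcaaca
MYR2: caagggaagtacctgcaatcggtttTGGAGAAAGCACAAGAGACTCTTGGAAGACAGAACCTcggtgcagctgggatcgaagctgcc
That run ends 948 bases from the 3' end of the MYR1 transcript and 812 bases from that of MYR2. In the last 600 bases of both transcripts, nearest to where these libraries take their reads, the longest shared run was 17 bases.

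The 250 bases before each annotated gene start are shown for both genes, and capitals mark the 2 runs of at least 12 bases that both windows share. The windows are chr5:6030803-6031052 for MYR1 and chr3:1044814-1045063 for MYR2, on the minus strand of TAIR10.1, written 5′ to 3′ towards the gene.
MYR1: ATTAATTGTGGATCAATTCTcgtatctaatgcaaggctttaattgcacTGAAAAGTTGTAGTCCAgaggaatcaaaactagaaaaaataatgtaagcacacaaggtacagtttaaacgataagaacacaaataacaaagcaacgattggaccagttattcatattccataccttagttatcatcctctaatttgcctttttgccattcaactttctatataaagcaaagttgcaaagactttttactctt
MYR2: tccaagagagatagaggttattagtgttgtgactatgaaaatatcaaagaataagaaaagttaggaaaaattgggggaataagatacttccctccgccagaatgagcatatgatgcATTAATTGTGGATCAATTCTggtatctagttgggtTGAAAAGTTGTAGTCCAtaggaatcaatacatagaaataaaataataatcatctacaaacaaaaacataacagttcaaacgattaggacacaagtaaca
The first run has 20 bases and starts 250 bases before MYR1, at the edge of the window, but 134 bases before MYR2. The second has 17 bases and starts 202 bases before MYR1 and 99 before MYR2. A search of both strands for 7 motifs, chosen after the values were seen, found 0 matches in either window, which says only that these letters are absent there. The motifs were P1BS (GNATATNC, the site bound by PHR1, in 5.46% of 27443 windows of this length), the evening element (AAATATCT, 4.79%), the CCA1-binding site (AAAAATCT, 6.69%), the G-box (CACGTG, 6.49%), the W-box core (TTGAC, 44.9%), RSRE (CGCGTT, 2.59%) and the NIGT1 motif (GAATATTC, 0.86%). P1BS, the evening element and the CCA1-binding site have similar letters and could in part match overlapping positions.

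MYR1 was near its floor at 45 min on both media and overlapped its 0 min levels by 180 min. Levels are CPM scaled by the TMM method, and they count 3' reads, so they compare a gene with itself across groups and not one gene with another. In bulk roots, fewer cells of a type and less RNA per cell cannot be told apart. At 0 min MYR1 stood at 9.83, 6.26, 4.83 and 6.9 CPM in batches 1 to 4, from 19, 21, 34 and 43 reads. After 45 min on fresh 1 mM it stood at 0, 0.352, 1.11 and 0.705 CPM, from 0, 2, 7 and 1 reads. With 3 counts as the limit that 0 reads allow, the level in batch 1 could be up to 1.62 CPM, a limit for counting error only. All 4 of these libraries lay below all 4 at 0 min, as was the case for 4.13% of all genes tested. The mean was 0.541 ± 0.475 CPM (SD, n = 4) against 6.96 ± 2.1 CPM, a log2 fold change of -3.31 ± 0.48 (SE), or 9.95-fold lower. Without batch 4 of 1 mM at 45 min, the library that stood apart, the log2 fold change was -3.32, and without batch 3 it was -4.35.

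On 10 mM the 45 min libraries were low as well. MYR1 stood at 0, 1.48, 0.439 and 0.573 CPM, from 0, 8, 3 and 3 reads, and the limit for the library with 0 reads was 1.41 CPM. Again all 4 lay below the 0 min libraries (3.99% of genes did so). Their mean of 0.624 ± 0.623 CPM was -3.18 ± 0.44 on the log2 scale against 0 min. The 2 comparisons share the 0 min libraries.

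The decline was already visible at 15 min, with a log2 fold change of -1.17 ± 0.36 on 1 mM and -1.16 ± 0.36 on 10 mM against 0 min. Libraries on 1 mM at 15 min ranged widely, at 7.63, 3.32, 2.29 and 1.41 CPM in batches 1 to 4, and overlapped those at 0 min. On 10 mM they stood at 3.52, 3.61, 2.11 and 2.74 CPM, all below the 0 min libraries (2.75% of genes did so). Within batches, the 15 min library was below its own 0 min library in 4 of 4 batches on either medium.

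By 90 min MYR1 had returned to 5.28, 5.57, 5.39 and 4.96 CPM on 1 mM, inside the range of the 0 min group, at -0.32 ± 0.32 on the log2 scale. On 10 mM the level at 90 min was lower, at 3.69, 4.38, 3.87 and 2.79 CPM, with a log2 fold change against 0 min of -0.86 ± 0.34. At 180 min the libraries stood at 9.6, 5.34, 4.63 and 7.73 CPM on 1 mM and at 6.3, 6.14, 7.58 and 8.75 CPM on 10 mM, and the log2 fold changes against 0 min were 0.02 ± 0.32 and 0.13 ± 0.31. In the order of mean levels, 10 mM at 180 min, 0 min, 1 mM at 180 min and 1 mM at 90 min came first and each overlapped its neighbour. All 4 libraries of 10 mM at 90 min lay below those of 1 mM at 90 min. Next came 10 mM at 90 min, 1 mM at 15 min and 10 mM at 15 min, which also overlapped in turn, and both 45 min groups came last, below all 4 libraries of 10 mM at 15 min.

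**Figure D1:**
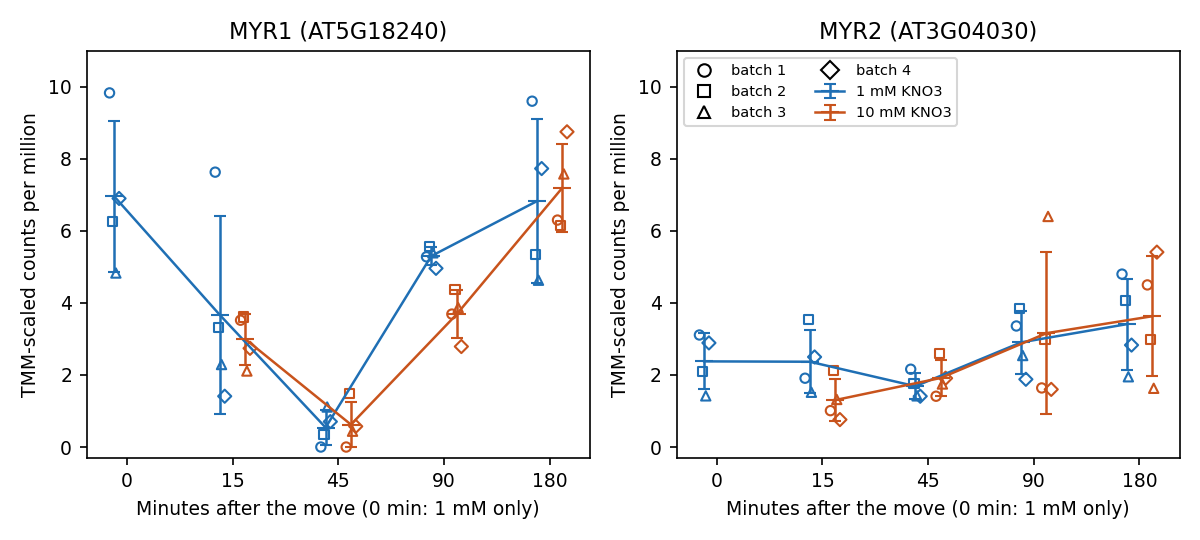
TMM-scaled CPM of MYR1 (left) and MYR2 (right) at each sampling time, which are evenly spaced on the axis; open symbols are single libraries by batch, and lines with bars are means and SD (n = 4) for 1 mM (blue) and 10 mM (orange). MYR1 lies between 0 and 1.48 CPM in all 8 libraries at 45 min, while MYR2 stays between 0.761 and 6.4 CPM throughout.

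The steps between neighbouring times within 10 mM were taken from the same edgeR quasi-likelihood fit, and calls over all 18768 genes were adjusted by Benjamini-Hochberg. MYR1 stood at 3 ± 0.708 CPM at 15 min and at 0.624 ± 0.623 CPM at 45 min (n = 4 each), a log2 difference of -2.01 ± 0.49, and was lower in 4 of 4 batches. Its low level at 45 min on 10 mM was known when the pair was chosen, so this value and the next carry no test. At this step edgeR called 4.57% of all genes, 2.64% as lower. The MYR1 difference was -1.77 without replicate 3 of 10 mM at 45 min, and -1.90 and -1.96 without batch 3 or batch 4.

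At 90 min MYR1 stood at 3.69 ± 0.662 CPM, 2.31 ± 0.46 above 45 min on the log2 scale, or 4.97-fold, and was higher in 4 of 4 batches. Of all genes 2.04% were called at this step and 0.9% as higher. Without batch 3 the MYR1 difference was 2.03. From 90 to 180 min the value was 0.99 ± 0.33 with an adjusted p of 0.177 by edgeR, so this step, which does not use the 45 min libraries, did not pass, although all 4 libraries at 180 min lay above all 4 at 90 min. That separation was found in 2.73% of genes, and 1% of genes were called. On 1 mM the 3 steps, given with no test, were -2.14 ± 0.53, 2.99 ± 0.48 and 0.34 ± 0.32.

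The group means of MYR2 lay between 1.3 and 3.63 CPM, and each group overlapped its neighbour in the order of levels. None of its steps within 10 mM or its concentration differences passed the test. At 0 min it stood at 3.11, 2.09, 1.42 and 2.89 CPM in batches 1 to 4, from 6, 7, 10 and 18 reads. At 45 min it stood at 2.16, 1.76, 1.42 and 1.41 CPM on 1 mM and at 1.41, 2.6, 1.75 and 1.91 CPM on 10 mM. These overlap the 0 min libraries, and the log2 fold changes against 0 min were -0.45 ± 0.49 and -0.19 ± 0.45. The first was -0.41 without batch 4 of 1 mM at 45 min. The 2 groups at 45 min ranked low in the order of MYR2 levels, with means of 1.92 ± 0.499 CPM on 10 mM and 1.69 ± 0.355 CPM on 1 mM, above 10 mM at 15 min alone. On 1 mM, the level at 45 min was below that at 90 min in 4 of 4 batches, by 0.55, 0.97, 0.68 and 0.33 on the log2 scale.

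The lowest MYR2 group was 10 mM at 15 min, at 1.01, 2.12, 1.32 and 0.761 CPM from 2, 10, 5 and 5 reads, and the highest was 10 mM at 180 min, at 4.5, 2.98, 1.63 and 5.41 CPM. Against 0 min these groups were at -0.78 ± 0.49 and 0.66 ± 0.41 on the log2 scale. On 1 mM the group means were 2.37 ± 0.877, 1.69 ± 0.355, 2.91 ± 0.87 and 3.41 ± 1.27 CPM at 15, 45, 90 and 180 min, lowest at 45 min. Batch 3 of 10 mM at 90 min held 38 MYR2 reads, or 6.4 CPM, where the other batches had 1.64, 3 and 1.6 CPM. Without batch 3, the value of that group against 0 min changed from 0.53 to -0.36.

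The MYR2 steps within 10 mM were 0.59 ± 0.49 from 15 to 45 min (adjusted p = 0.795), 0.73 ± 0.42 from 45 to 90 min (adjusted p = 0.572) and 0.13 ± 0.38 from 90 to 180 min (adjusted p = 0.973, edgeR). At the first step the 95% interval was -0.40 to 1.58 for MYR2. MYR2 had 430 reads over the 36 libraries and MYR1 700, so only large changes of either gene could be measured.

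The ratio of MYR1 to MYR2 reads sets the pair side by side within a library. It was taken as log2 after adding 0.5 to both counts, and only its change between groups is read, not its level. At counts this low the added constant matters: the batch 1 values at 45 min come from 0 MYR1 reads, with 4 MYR2 reads on 1 mM and 3 on 10 mM, and are set by it. On 10 mM at 15 min it was 1.58, 0.74, 0.63 and 1.75 in batches 1 to 4, and at 45 min it was -2.81, -0.77, -1.84 and -1.58. All libraries at 45 min lay below all at 15 min. The means were 1.17 ± 0.57 and -1.75 ± 0.84 (SD, n = 4), a difference of -2.92, given with no test.

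At 90 min the mean ratio was 0.42 ± 0.79, a difference of 2.17 from 45 min, again with no overlap. The nearest libraries were close, at -0.77 in batch 2 at 45 min and -0.71 in batch 3 at 90 min. From 90 to 180 min it differed by 0.67, with overlap (exact permutation test, two-sided, p = 0.4, n = 4 each). With 2 in place of 0.5 added to the counts, the differences into and out of 45 min were -2.15 and 1.54. In that setting the nearest libraries at 45 and 90 min were no longer apart. On 1 mM, given with no test, the mean ratio was 1.51 at 0 min, 0.38 at 15 min, -1.58 at 45 min, 0.89 at 90 min and 1 at 180 min.

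**Figure D2:**
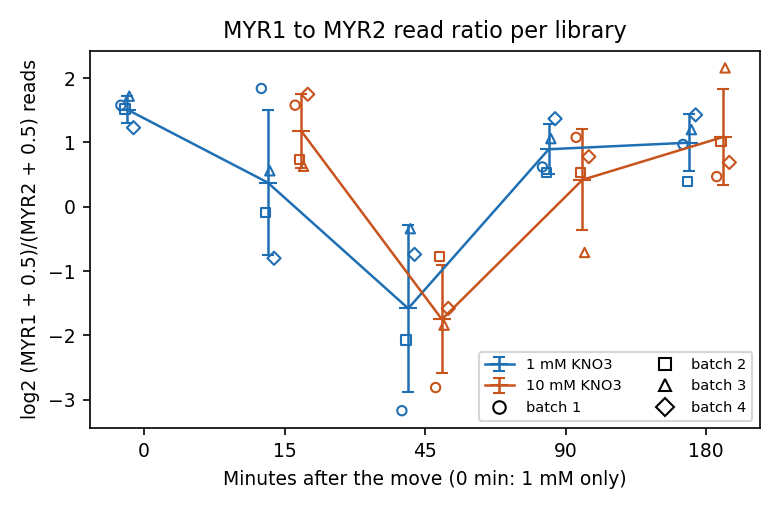
log2 ratio of MYR1 to MYR2 reads in each library, with 0.5 added to both counts, by sampling time (evenly spaced) for 1 mM (blue) and 10 mM (orange); symbols are batches and bars are means with SD (n = 4). All 8 libraries at 45 min lie between -3.17 and -0.34, and those of 10 mM at 15 min between 0.63 and 1.75.

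No difference between fresh 10 mM and fresh 1 mM medium passed the test for either gene at these depths. For MYR1, 10 mM minus 1 mM was 0.01 ± 0.37 at 15 min, 0.14 ± 0.66 at 45 min and 0.11 ± 0.31 at 180 min on the log2 scale. The 95% intervals of these differences were -0.73 to 0.75, -1.20 to 1.47 and -0.51 to 0.74, so differences of over 2-fold either way lie inside the interval at 45 min. Without batch 4 of 1 mM at 45 min the difference at that time was 0.15. Over all fits that left out a library or a batch it lay between -0.90 and 1.26, so its sign depended on single libraries or batches.

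At 90 min MYR1 was lower on 10 mM, at -0.54 ± 0.34 (95% interval -1.23 to 0.15), with an unadjusted p of 0.119 and an adjusted p of 0.999 by edgeR over all genes. All 4 libraries on 10 mM, from 2.79 to 4.38 CPM, lay below all 4 on 1 mM, from 4.96 to 5.57 CPM. The differences within batches 1 to 4 were -0.47, -0.32, -0.43 and -0.74. Such a separation downwards was found in 1.58% of genes at this time.

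MYR2 was lower on 10 mM at 15 min, at -0.86 ± 0.48 (95% interval -1.83 to 0.11; adjusted p = 1 by edgeR), and the 2 groups overlapped. Within batches it was lower in 4 of 4, at -0.70, -0.64, -0.16 and -1.30. At the later times MYR2 was at 0.25 ± 0.49, 0.23 ± 0.39 and 0.13 ± 0.39. The ratio of MYR1 to MYR2 differed between the media by 0.80, -0.17, -0.47 and 0.09 at the 4 times, and none passed (exact permutation test, n = 4 each, lowest p 0.286, adjusted over the 4 times 0.8).

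In edgeR 0% of the genes tested were called for 10 mM against 1 mM at any of the 4 times, in the joint test of the 4 times (adjusted p = 1 for both genes) or in the test of a concentration effect that differs between times (adjusted p = 1 for both). At an unadjusted p under 0.05 there were 486, 915, 873 and 369 genes. DESeq2 called 0 at each time. With the batch as a block, which the batch labels allow, edgeR called 2 genes at 15 min, 9 at 90 min, 0 at 45 and 180 min and 16 in the joint test, and neither MYR1 nor MYR2 was among those past the threshold (adjusted p = 0.652 for MYR1 at 90 min).

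**Figure D3:**
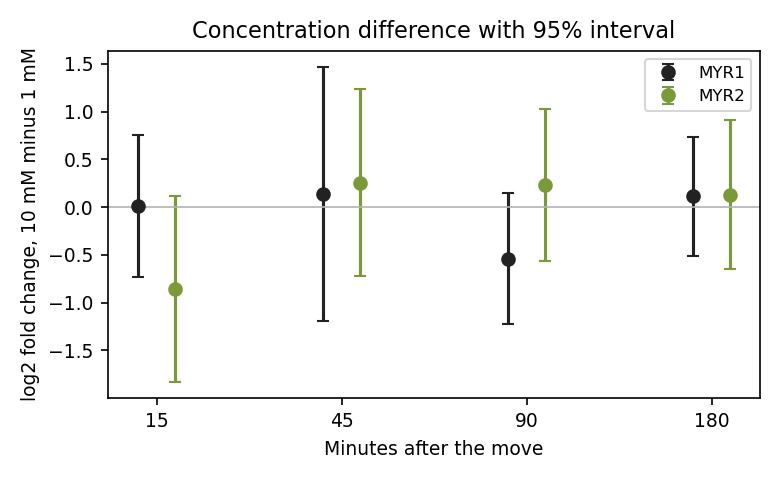
Difference between 10 mM and 1 mM in log2 units at each sampling time for MYR1 (black) and MYR2 (green), from the edgeR fit; bars are 95% intervals. Each interval includes 0, and that of MYR1 at 45 min, from -1.20 to 1.47, is the widest for that gene.

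A second gene, AT5G18245, overlaps MYR1 on the opposite strand (chr5:6028020-6033342, plus strand, TAIR10.1), and was looked at after the values were seen. Its exons cover 1562 of the 1688 exon bases of MYR1, or 92.5%, and all of the last 500. How the authors' counting used strand is not given in the sources used here, so reads of the 2 genes cannot be told apart with certainty. The upstream window of MYR1 shown above also lies within this gene. No other gene overlaps MYR1, and none overlaps MYR2.

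AT5G18245 was not low at 45 min in 7 of the 8 libraries in which MYR1 was. At 0 min it stood at 3.11, 3.58, 4.83 and 4.17 CPM in batches 1 to 4. At 45 min it stood at 6.49, 5.63, 5.06 and 0 CPM on 1 mM and at 4.7, 4.82, 4.68 and 5.54 CPM on 10 mM. The library with 0 reads is the shallow one that stands apart, and the limit there was 2.11 CPM.

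Its group means lay between 3.67 and 5.57 CPM. At 45 min against 0 min the log2 fold change was 0.22 ± 0.34 on 1 mM (adjusted p = 0.811, edgeR) and 0.27 ± 0.33 on 10 mM (adjusted p = 0.833), with 0.45 on 1 mM without the library that stands apart, and no step or concentration difference was called. Across the 36 libraries, after subtracting batch means, the log2 CPM of the 2 genes correlated at r = 0.04, while MYR1 and MYR2 correlated at r = 0.45. These are descriptions over libraries that share times and handling.

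**Figure D4:**
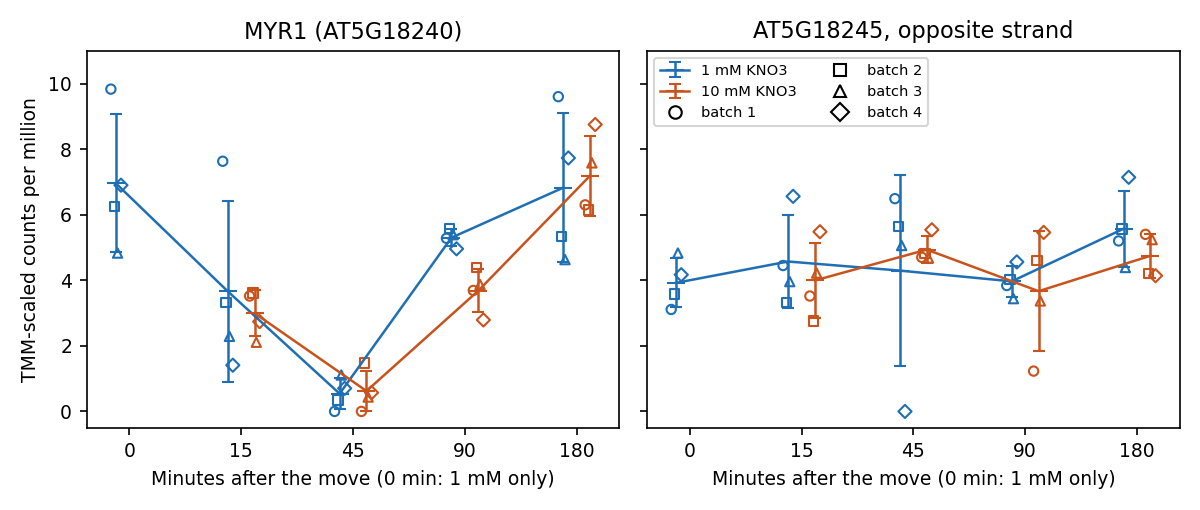
TMM-scaled CPM of MYR1 (left) and of AT5G18245, annotated on the opposite strand over it (right), by sampling time (evenly spaced); symbols are libraries by batch, bars are means with SD (n = 4), for 1 mM (blue) and 10 mM (orange). At 45 min MYR1 is at most 1.48 CPM, whereas 7 of the 8 AT5G18245 values are at least 4.68 CPM and 1 is 0.

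The other 12 MYB-CC genes were all measured, and none was called against 0 min on 1 mM, where edgeR called 6.92%, 6.99%, 7.14% and 7.53% of all genes at 15, 45, 90 and 180 min. At an unadjusted p under 0.05 there were 2, 3, 0 and 1 of the 12, beside 2696, 3499, 3259 and 3360 of the 18768 genes tested. DESeq2 called 0 of the 12 at each time. On 10 mM, where 5.16%, 5.83%, 6.38% and 6.85% of all genes were called, edgeR and DESeq2 again called 0. There, 1, 2, 1 and 2 of the 12 had an unadjusted p under 0.05, beside 2209, 2746, 3029 and 3042 of all genes tested. A fit that blocked on batch called 1 of the 12 on 1 mM, AT5G45580 at 45 min (0.71, adjusted p = 0.0192). The median of the 12 at 45 min was 0.06 on 1 mM and -0.08 on 10 mM, beside 0.00 and -0.02 over all genes.

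PHR1 and PHL1 were close to their 0 min levels at 45 min. PHR1 stood at 31.3 ± 7.96 CPM at 0 min and 33 ± 7.03 and 35.1 ± 4.27 CPM at 45 min on 1 mM and 10 mM, and PHL1 at 24.4 ± 1.89, 25.1 ± 6.05 and 26.1 ± 0.846 CPM (SD, n = 4 each). Their log2 fold changes at 45 min were between 0.04 and 0.14. AT2G01060 was the most counted of the list, at 63.4 ± 9.33 CPM at 0 min, 63.9 ± 5.59 CPM at 45 min on 1 mM and 60.4 ± 8.48 CPM on 10 mM.

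AT3G24120 and UNE16, close relatives of one another, were at 0.13 ± 0.15 and -0.43 ± 0.21 on 1 mM at 45 min and at -0.13 ± 0.15 and -0.13 ± 0.20 on 10 mM. AT3G12730 and AT5G06800 were at 0.01 ± 0.23 and 0.11 ± 0.24 on 1 mM. AT2G20400 was at 0.68 ± 0.36 on 1 mM and -0.10 ± 0.36 on 10 mM. AT3G04450 had only 182 reads in all, and its -1.37 ± 0.77 on 1 mM (adjusted p = 0.351, edgeR) is too imprecise to set beside MYR1.

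Calls in the family came at the steps between times. APL, the phloem identity factor, rose from 45 to 90 min on both media, where 2.04% of all genes were called on 10 mM and 2.16% on 1 mM. It rose by 0.76 ± 0.16 on 10 mM (13.4 ± 3.95 to 23.8 ± 2.08 CPM, adjusted p = 0.00322) and by 0.70 ± 0.16 on 1 mM (adjusted p = 0.013, edgeR), in the interval over which the MYR1 level was higher at the end in 4 of 4 batches on 10 mM. Before that it was at -0.45 ± 0.17 and -0.47 ± 0.16 at 45 min against 0 min on 1 mM and 10 mM, which did not pass (adjusted p = 0.106 and 0.076). The rise on 10 mM lost its call without batch 3 or batch 4 (0.77 and 0.76, adjusted p = 0.11 and 0.053, edgeR). The rise on 1 mM lost it in 7 of 12 such fits, without replicate 2 or 3 at 45 min, replicate 2 or 4 at 90 min, or batch 2, 3 or 4, where it lay between 0.53 and 0.78 (highest adjusted p 0.279, edgeR). AT5G45580 fell from 45 to 90 min on 1 mM by 1.25 ± 0.31 on the log2 scale (adjusted p = 0.018, edgeR). It lost its call in 6 of 12 fits, without replicate 3 or 4 at 45 min, replicate 2 or 3 at 90 min, or batch 3 or 4, with -0.91 without replicate 4 at 45 min, the library that stands apart (adjusted p = 0.113, edgeR). AT1G69580 was at 0.61 from 15 to 45 min on 10 mM (adjusted p = 0.0563 by edgeR), and a fit with batch as a block called it (adjusted p = 0.00655).

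Phloem markers give the cell-type values beside APL. All 5 markers were measured, none at 0 reads in a group, and they summed to between 74.3 and 96 CPM at 0 min, 93.8 and 131 CPM at 45 min on 1 mM, 88.8 and 102 CPM at 45 min on 10 mM, and 124 and 150 CPM at 180 min over both media. By edgeR 0 of the 5 were called from 45 to 90 min on either medium. At an unadjusted p under 0.05 there were 1 on 10 mM and 0 on 1 mM, beside 2063 and 2717 of the 18768 genes tested. On 1 mM against 0 min, 1 of the 5 was called at 90 min and at 180 min, where 7.14% and 7.53% of all genes were. That marker, SUC2, the sucrose transporter of phloem companion cells, stood at 45.7 ± 6.26 CPM at 0 min, 75.7 ± 6.98 CPM at 90 min and 92.6 ± 8.75 CPM at 180 min, and makes up most of the difference in the sum. The next most counted, SEOR1, stood at 31.3 ± 7.1, 32.2 ± 1.46 and 32 ± 2.65 CPM. At 45 min the median phloem sum was 102 CPM on 1 mM and 90.8 CPM on 10 mM, against 84.2 CPM at 0 min. The single markers SUC2, SEOR1, CalS7, NAC045 and NAC086 were then at 0.453, 0.276, -0.114, 0.627 and 0.778 on 1 mM, as log2 fold changes against 0 min. On 10 mM they were at 0.335, -0.095, -0.552, 0.561 and 0.374. The part of phloem RNA in the values of MYR1 and APL was not tested.

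**Figure D5:**
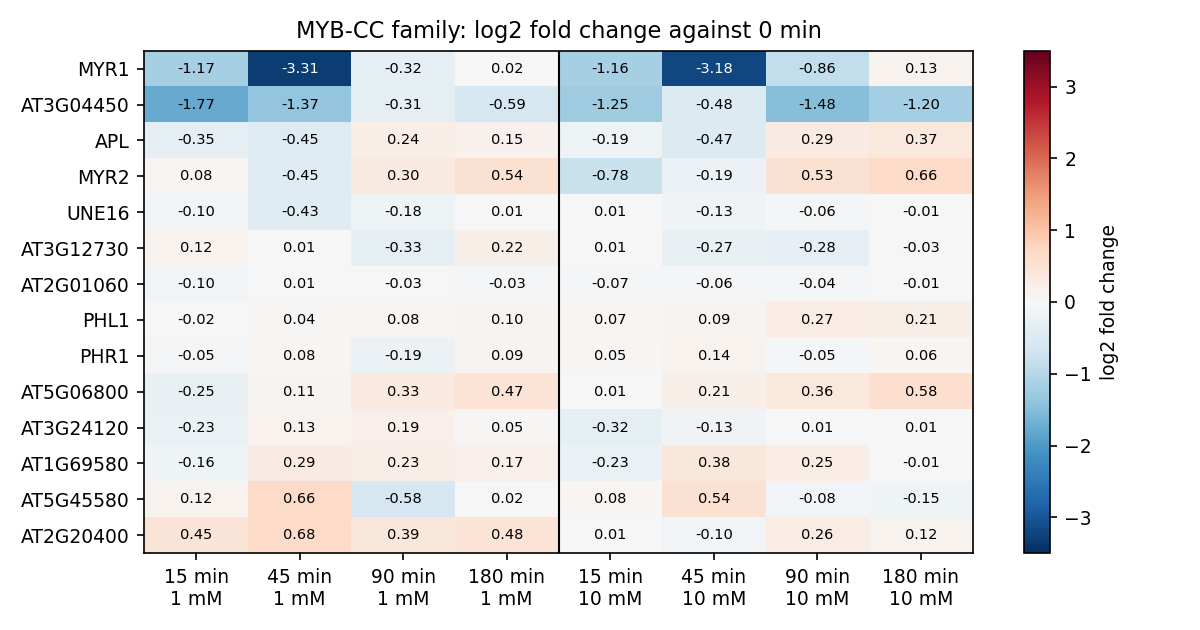
log2 fold change against 0 min for MYR1, MYR2 and the 12 other MYB-CC genes (rows, ordered by the value at 45 min on 1 mM) at each time on 1 mM (left) and 10 mM (right); red is higher and blue lower, and the value is printed in each cell. MYR1 is at -3.31 and -3.18 at 45 min, and the columns share the same 0 min libraries.

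Genes of the pathways the pair has been linked to are given from fixed lists. ASN1, the asparagine synthetase gene described as repressed by MYR2, rose on both media. It stood at 10.5 ± 2.33 CPM at 0 min and at 36.5 ± 11.7, 55.1 ± 13.7 and 35.7 ± 14.9 CPM at 45, 90 and 180 min on 1 mM, log2 fold changes of 1.76 ± 0.32, 2.41 ± 0.31 and 1.79 ± 0.32 (adjusted p = 0.000192, 4.08e-07 and 9.6e-05, edgeR). It was the 1 of 3 asparagine synthetases called at each of those times, where 6.99%, 7.14% and 7.53% of all genes were called, and it kept its call without any 1 library or batch of the groups compared. The median of the 3 at 45 min was 0.35 on 1 mM, beside 0.00 over all genes. On 10 mM the values were 1.82 ± 0.32, 2.09 ± 0.31 and 1.99 ± 0.31. Over the 36 libraries ASN1 correlated with MYR2 at r = 0.31 and with MYR1 at r = -0.07, as a description.

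Among gibberellin genes, 6 of 14 in synthesis, 5 of 7 in breakdown and 8 of 8 among receptors and DELLA repressors had enough reads to test. At 45 min on 1 mM their medians against 0 min were -0.07, 0.08 and 0.06, beside 0.00 over all genes. Calls of single members stand beside 6.92%, 6.99%, 7.14% and 7.53% of all genes called on 1 mM at 15, 45, 90 and 180 min. On 1 mM against 0 min, GA2OX6, a gibberellin-inactivating oxidase, rose from 7.73 ± 3.03 CPM to 17.5 ± 2.87 at 15 min and 17.2 ± 3.29 at 45 min, by 1.10 ± 0.25 and 1.07 ± 0.26 (adjusted p = 0.00208 and 0.00498, edgeR), and kept both calls without any 1 library or batch. ATGA2OX1, of the same function, fell by 1.34 ± 0.38 at 45 min and by 1.41 ± 0.36 at 90 min (adjusted p = 0.0221 and 0.0086). At 45 min it lost its call without replicate 3 at 0 min, replicate 2 or 4 at 45 min, or batch 2, 3 or 4, with values between -1.21 and -1.06 (highest adjusted p 0.217, edgeR). At 90 min it lost its call without replicate 3 at 0 min or batch 3 or 4, at -1.12, -1.14 and -1.38 (highest adjusted p 0.202, edgeR). GA3OX2, which makes bioactive gibberellin, fell by 0.75 ± 0.22 at 15 min (adjusted p = 0.024, edgeR). That call was lost in 8 of 12 fits, without replicate 1, 3 or 4 at 0 min, replicate 2, 3 or 4 at 15 min, or batch 3 or 4, with values between -0.76 and -0.70 (highest adjusted p 0.231, edgeR).

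The receptor gene GID1C fell by 0.67 ± 0.20 at 45 min (adjusted p = 0.0291) and the DELLA gene RGA1 rose by 0.58 ± 0.17 at 90 min (adjusted p = 0.0258, edgeR). The GID1C call was lost without replicate 2 or 3 at 0 min, replicate 2, 3 or 4 at 45 min, or batch 2, 3 or 4, with values between -0.66 and -0.53 (highest adjusted p 0.301, edgeR). The RGA1 call was lost without replicate 1 or 2 at 0 min, replicate 1 or 4 at 90 min, or batch 1, 2 or 4, with values between 0.45 and 0.61 (highest adjusted p 0.135, edgeR). No other member of the 3 gibberellin lists was called on 1 mM against 0 min, where between 6.92% and 7.53% of all genes were called at each time. None of their 19 measured members was called for 10 mM against 1 mM at any time by edgeR. At an unadjusted p under 0.05 there was 1 of them, in synthesis at 45 min, when 915 of the 18768 genes tested were under it. DESeq2 called 0 genes of any kind there.

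The genes most like MYR1 across the 36 libraries, by Pearson's r of batch-centred log2 CPM among 17749 genes with a mean of at least 1 on that scale, were AT1G19000 (r = 0.862), AT5G02580 (0.83), the ubiquitin-conjugating enzyme gene UBC17 (0.825), AT3G45710 (0.807) and the ammonium transporter gene AMT1;2 (0.806). The least like were AT5G42930 (-0.87) and the dehydrin gene ERD10 (-0.87). At 45 min on 1 mM the log2 fold changes against 0 min of the 5 most like genes lay between -1.45 for UBC17 and -0.45 for AT1G19000, smaller in size than that of MYR1, and ERD10 was at 1.55.

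For MYR2 the highest r values were lower, with AT1G27150 (0.732), ALB3, which encodes a thylakoid membrane insertase (0.682), AT4G33700 (0.659), ISU1, an iron-sulfur cluster scaffold gene (0.657), and AT3G27884 (0.655). The least like were AT5G19250 and AT4G22820 (both -0.663). None of the genes named for MYR1 was named for MYR2, but lists this short out of 17749 genes would rarely share a member. MYR1 and MYR2 themselves correlated at r = 0.45. All these r values describe libraries that share times, media and handling, and low counts add noise that lowers r, the more so for MYR2.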

How the data were processed

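The 36 libraries measured poly-A RNA of roots. For each library the authors deposited 1 table of raw, unscaled gene counts. The submitters' processing notes list HTSeq, Bowtie2, SAMtools and FastQC and the build TAIR10. Their versions, the annotation and the strand setting are not given here. Each table held 32833 identifiers. Names, sequences and positions came from RefSeq's TAIR10.1, and the deposited tables carry no coordinates.

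Groups and batches came from the labels. The series' design text speaks of biological replicates of 2 plates each, and whether batches were separate sowings is not given. The p-values therefore rest on the spread among libraries within groups. The edgeR fit estimates that spread over all 9 groups together, and the permutation tests use the 4 libraries of each group compared. Over 54 replicate pairs, chi-square per degree of freedom was 2.69 to 12.4, so replicates differed by more than sampling noise. Replicate numbers pair the samples because the labels name a batch, and deviations from group means of same-numbered 1 mM and 10 mM libraries correlated at 0.023 to 0.403 (14 of 16 above 0.1).

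The main test was edgeR 4.0.16 in R 4.3.3 with TMM scaling, filterByExpr over the 9 groups (minimum count 10), one quasi-likelihood fit to the 36 libraries without a block, two-sided, and a Benjamini-Hochberg adjusted p of at most 0.05 over 18768 genes. SE is the fold change divided by the root of the F statistic and is approximate. The read ratio had exact permutation tests where its values were not used in choosing the pair. The tests planned for the steps of MYR1 and of the ratio into and out of 45 min on 10 mM are not reported, since that low level was already known. Likeness used log2 CPM with a prior count of 2. The common biological coefficient of variation came to 17% (12.1% in the blocked fit). Alternatives were RLE scaling, no filter, a replicate block for batch, DESeq2 1.42.0, a fit of the 8 libraries of each comparison, leaving out each library or batch, 2 added before the log ratio, and for likeness a prior count of 0.5 and the 9 group means. Leaving out libraries or batches for named genes outside the pair, and for AT5G18245, was added after seeing the data. The edgeR fit was tested on simulated data.

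MYR1 and MYR2, the gene lists and the tests were chosen with earlier results of these data known. Named genes are the pair, all 14 MYB-CC genes, ASN1, up to 4 called members per other list in 10 mM against 1 mM or 1 mM against 0 min, and for each of the pair the 5 most and 2 least alike genes. AT5G18245, SUC2 and the motifs were chosen after values were seen. Protein sequences were not used here.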

Additional observations from a re-analysis of the deposited data

Results flagged for a closer look

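AT5G18245, on the strand opposite MYR1, had 1 library flagged as apart from its group. Batch 4 of 10 mM at 45 min stood at 5.54 CPM, from 29 reads, while the other 3 lay close together between 4.68 and 4.82 CPM. The gap was 0.837 of the group's range, against a limit of 0.829 for 4 samples. Of 36 sets of 4 values examined (MYR1, MYR2, AT5G18245 and the read ratio in each group) this was the 1 that stood out. Chance gives about 1 in 20 sets, so this flag is no more than chance would give. The AT5G18245 library with 0 reads, batch 4 of 1 mM at 45 min, was not flagged by this rule.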

How the results depend on the processing

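The tested fold changes of MYR1 and MYR2 kept their side of the threshold, and those given as descriptions moved by less than the spread between replicates. The settings were RLE scaling, no filter, DESeq2, only the 8 libraries compared and the batch as a replicate block. A change of sign was not counted where neither value passed, so the direction of tested values that did not pass was not checked. In 8 cases the 8 libraries alone gave no value, since the gene missed the filter there. With the block, MYR1 on 10 mM was at -1.99 from 15 to 45 min and at 2.29 from 45 to 90 min, given with no test. Among the values of either gene that were tested, the pairing changed no call. For the read ratio, pairing by batch cannot change a mean difference, so -2.92 and 2.17 stay the same by construction. Adding 2 gave -2.15 and 1.54.

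Leaving out a library or a batch gave -2.73 to -1.77 for MYR1 on 10 mM from 15 to 45 min and 2.03 to 3.04 from 45 to 90 min. The ratio gave -3.40 to -2.44 and 1.60 to 2.55. On 1 mM MYR1 gave -3.18 to -1.59 from 15 to 45 min and 2.65 to 3.88 from 45 to 90 min. Against 0 min at 45 min it gave -4.35 to -2.97 on 1 mM, the lowest without batch 3, and -3.93 to -2.85 on 10 mM, the lowest without batch 2. MYR2 against 0 min gave -1.21 to -0.30 on 10 mM at 15 min and -0.36 to 1.02 at 90 min. For 10 mM minus 1 mM at 15, 45, 90 and 180 min, MYR1 gave -0.31 to 0.37, -0.90 to 1.26, -0.64 to -0.40 and -0.06 to 0.32. MYR2 gave -1.25 to -0.55, 0.07 to 0.40, -0.49 to 0.52 and -0.27 to 0.38.

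With the block, the genes called on 10 mM were 1347, 921 and 565 at the 3 steps, against 858, 383 and 188 without it, and on 1 mM 1744, 1107 and 484 against 996, 406 and 220. Against 0 min they were 2193, 2214 and 2287 on 1 mM at 45, 90 and 180 min, against 1311, 1340 and 1414, and 1733, 2008 and 2029 on 10 mM, against 1094, 1197 and 1286. The cause was not tested. Likeness moved by 0.1 or more for 9 of the 14 genes over the 9 group means. The order moved as well, so the genes named as most like depend on the measure. For MYR2, ISU1 went from place 4 to 1317 and ALB3 from 2 to 220, while AT1G27150 stayed at 1. For MYR1, AT1G19000 went from place 1 to 14 and UBC17 from 3 to 38.

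Depth limits these results: at 45 min MYR1 rests on 10 reads over 4 libraries on 1 mM and 14 on 10 mM, and MYR2 on 430 reads in all.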
